A study of Homo sapiens with 4 samples.

Results

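The genes described here are 10 kinases, cyclins and phosphatases that set the moment of entry into mitosis. They are the kinase CDK1, the cyclins CCNB1, CCNB2 and CCNA2, the polo-like kinase PLK1, the inhibitory kinases WEE1 and PKMYT1, and the phosphatases CDC25A, CDC25B and CDC25C. They were listed by name, and all 10 were among the 19140 genes with a gene value. mRNA was measured in Huh7 cells, a human hepatocellular carcinoma line, that had received an siRNA against nuclear factor 90 (siNF90) or a control siRNA called siNTC, with 2 arrays in each group. All 4 samples carried an siRNA, and the siRNA sequences, doses, time of harvest and number of separate cultures are stated in none of the sources used. The p-values therefore rest on the spread of these 4 arrays alone, and that spread may be technical. The depletion of NF90 was not analysed here, and the labels were taken as given.

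CDK1 drives cells into mitosis when it is bound to cyclin B. WEE1 and PKMYT1 hold the CDK1-cyclin B complex inactive by phosphorylating CDK1, and the CDC25 phosphatases remove these phosphates. Cyclin A2 acts earlier, in S and G2 phase, and PLK1 promotes entry by activating CDC25C and by marking WEE1 for degradation. Many of these genes are transcribed mainly in G2 and mitosis, under the control of MuvB complexes with B-MYB or FOXM1, of NF-Y and of E2F proteins.

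A gene value is the mean, on each array, of the gene's probe sets whose mean over the 4 arrays was at or above the 40th percentile of all 352859 probe sets, a log2 value of 2.13. The values are on the log2 scale, and a difference is siNF90 minus siNTC. Of 156 probe sets named for the 10 genes, 141 were kept and 15 were dimmer than the limit. The members' probe sets nearest to it were one of CDC25A at a mean of 2.14 and one of PKMYT1 at 2.19 inside, and one of CDK1 at 2.13 and one of CDC25B at 2.04 outside. The probe sets were thus chosen by their mean level over all 4 arrays. The genes were selected with earlier results of this comparison known, so their differences are a description. The p-values come from the fit over all genes and only place the members among the others.

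The 4 arrays had medians between 2.72 and 2.79 over all probe sets and correlated at between 0.936 and 0.958 across genes, which are not independent replicates. Of the 10 hepatocyte markers looked up, 9 were measured, ALB, AFP and TF among them, with group means from 5.45 to 11.1. The 2 with the smallest p, FGB and ALB, had differences of -0.52 and -0.39 (siNF90 minus siNTC, log2; adjusted p = 0.547 and 0.620 in limma). The 7 measured markers of leukocytes, endothelium and fibroblasts had group means between 1.90 and 3.70. The limit for dim probe sets was 2.13, and the medians of the arrays over gene values ran from 3.93 to 4.01. Of these 7 markers, DCN and CD3E had the smallest p, with differences of -1.20 and 1.15 (adjusted p = 0.547 and 0.683 in limma). They rested on 2 and 1 kept probe sets at a low level, with SE of 0.41 and 0.70. The groups overlapped for CD3E and not for DCN. In RNA from whole cultures, a smaller or larger share of cells in G2 or mitosis and a change of mRNA per cell cannot be told apart.

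In 5 of the genes both siNF90 arrays lay above both of siNTC. The promoters of 4 of those 5 (CCNB2, PLK1, CDC25C and CDK1) are shown because they hold the same letters of a known mitotic promoter motif. CDC25B, the other gene of the 5, is shown because none of its windows held these letters, and CCNB1 and CCNA2, whose groups overlapped, because they held other forms of the motif. Each is the 250 bases before a transcription start in RefSeq (GRCh38.p14), 5′ to 3′ on the gene's strand. The capitals mark 2 motifs on either strand. The first is TTTGAA, the most common form of the cell cycle genes homology region (CHR), to which MuvB complexes are known to bind. The second is the CCAAT box, which NF-Y is known to bind and which reads ATTGG on the opposite strand.
CCNB2, chr15:59104896-59105145, plus strand: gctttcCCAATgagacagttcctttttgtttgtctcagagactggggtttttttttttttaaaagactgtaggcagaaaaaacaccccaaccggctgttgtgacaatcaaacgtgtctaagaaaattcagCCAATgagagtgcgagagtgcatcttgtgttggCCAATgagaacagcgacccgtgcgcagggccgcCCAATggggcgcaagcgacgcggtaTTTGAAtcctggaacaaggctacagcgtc
PLK1, chr16:23678639-23678888, plus strand: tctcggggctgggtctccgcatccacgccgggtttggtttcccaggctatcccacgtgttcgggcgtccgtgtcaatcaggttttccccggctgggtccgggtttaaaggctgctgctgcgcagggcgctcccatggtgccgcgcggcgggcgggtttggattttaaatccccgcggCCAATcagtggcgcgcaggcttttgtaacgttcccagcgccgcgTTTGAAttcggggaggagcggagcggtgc
CDC25C, chr5:138331805-138332054, minus strand: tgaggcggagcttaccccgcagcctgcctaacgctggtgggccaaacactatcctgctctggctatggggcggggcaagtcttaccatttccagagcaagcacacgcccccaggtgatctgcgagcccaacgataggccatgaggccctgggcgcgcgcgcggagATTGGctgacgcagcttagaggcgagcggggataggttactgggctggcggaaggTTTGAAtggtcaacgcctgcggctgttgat
CDK1, chr10:60778228-60778477, plus strand: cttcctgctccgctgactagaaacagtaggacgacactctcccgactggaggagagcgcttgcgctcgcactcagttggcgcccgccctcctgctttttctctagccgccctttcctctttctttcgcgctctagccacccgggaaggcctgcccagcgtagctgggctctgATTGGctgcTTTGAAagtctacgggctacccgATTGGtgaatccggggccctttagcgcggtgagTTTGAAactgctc
CDC25B, chr20:3795539-3795788, plus strand: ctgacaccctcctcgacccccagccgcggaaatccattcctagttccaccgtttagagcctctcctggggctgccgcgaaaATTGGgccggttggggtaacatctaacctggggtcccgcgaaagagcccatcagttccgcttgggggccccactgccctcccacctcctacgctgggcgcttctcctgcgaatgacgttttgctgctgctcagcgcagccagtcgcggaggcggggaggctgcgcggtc
CCNB1, chr5:69166900-69167149, plus strand: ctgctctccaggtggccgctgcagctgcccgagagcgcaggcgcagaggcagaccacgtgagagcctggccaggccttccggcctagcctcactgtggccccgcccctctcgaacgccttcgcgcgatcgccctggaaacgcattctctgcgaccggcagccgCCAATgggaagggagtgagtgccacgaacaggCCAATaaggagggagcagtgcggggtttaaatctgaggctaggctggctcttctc
CCNA2, chr4:121823884-121824133, minus strand: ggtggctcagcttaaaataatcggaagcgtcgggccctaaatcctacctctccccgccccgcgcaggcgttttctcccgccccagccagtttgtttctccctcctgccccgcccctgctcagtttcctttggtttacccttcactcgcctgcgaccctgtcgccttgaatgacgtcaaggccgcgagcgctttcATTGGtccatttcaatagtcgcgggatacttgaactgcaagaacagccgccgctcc

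RefSeq windows were found for 8 of the 10 genes, in 15 windows, and WEE1 and PKMYT1 had none in the table used. TTTGAA matches stood at -29 to -24 from the start in both CCNB2 and PLK1, at -30 to -25 in CDC25C, and at -69 to -64 and -13 to -8 in the CDK1 window shown. None of the 4 CDC25B windows held TTTGAA. The CHR is also known in other forms, and 2 of them, CTTGAA and TTTAAA, were searched on both strands after the first results were seen. CTTGAA, the form known in the cyclin A2 promoter, stood at -87 to -82 and at -28 to -23 in CCNA2, and TTTAAA stood at -30 to -25 in CCNB1. TTTAAA also occurred in CCNB2 at -193 to -188, in PLK1 at -148 to -143 and -88 to -83, and in a CDK1 window not shown. All 8 genes held a CCAAT match in at least 1 window, and CCNB2 held 4. Of 27305 genes with a window, 16.1% held TTTGAA in at least 1 window, 37% held CCAAT, 5.79% held both in 1 window, 11.5% held CTTGAA and 13.5% held TTTAAA. Of all 35116 windows, 13.3% held TTTGAA, 32% CCAAT, 4.69% both, 9.52% CTTGAA and 11.3% TTTAAA. The 4 E2F-type motifs searched, TTTGGCGC, TTTCGCGC, TTTCCCGC and TTTGCCGC, occurred in 2.79% of windows and, among these genes, in CDC25A at -44 to -37 and in CDK1 at -128 to -121. The E2F-type letters did not overlap the capitals. A match is a description of the letters and not a bound site.

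**Figure D1:**
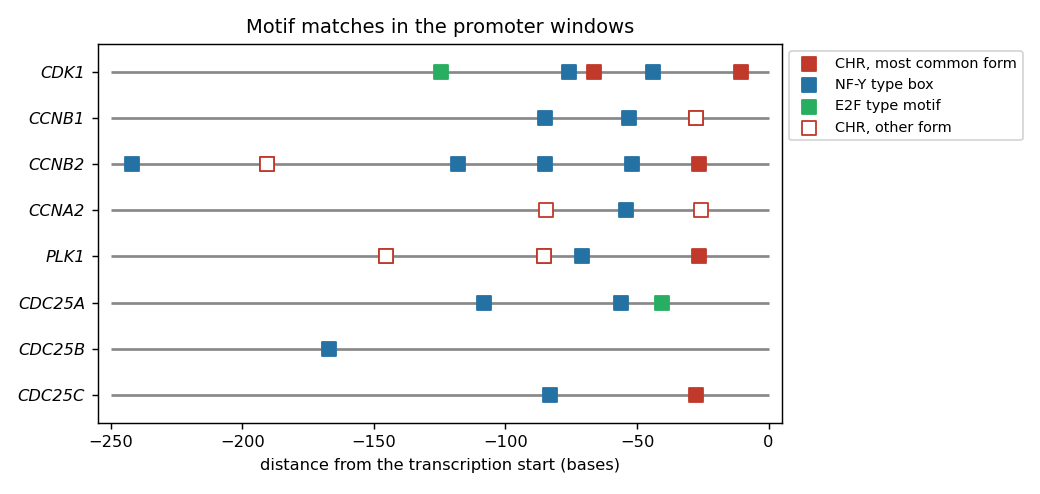
Motif matches in 1 RefSeq window of each of 8 genes, with the distance from the transcription start in bases on the x axis. The squares mark CHR matches of the TTTGAA form (filled) and of the CTTGAA or TTTAAA form (open), NF-Y type boxes (the CCAAT motif) and E2F-type motifs. TTTGAA appears in CDK1, CCNB2, PLK1 and CDC25C within the last 69 bases before the start, CTTGAA in CCNA2 and TTTAAA in CCNB1, CCNB2 and PLK1.

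The 4 genes with TTTGAA had both siNF90 arrays above both siNTC arrays, CDK1 by only 0.0078, and so did CDC25B without it. Over the array as a whole, the shares for genes with these letters lay near those of all genes with a window. Of 13445 measured genes with a window, 1795 held TTTGAA, and 20.2% of them had both siNF90 arrays above both siNTC arrays, against 19.9% of all genes with a window. For the 687 genes with both TTTGAA and CCAAT the share was 21.5%, and their median difference was -0.0076. The letters were counted anywhere in the 250 bases on either strand, so these shares do not separate CHR sites from other matches. A link between the motif and the differences was not tested.

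The differences of the 10 genes lay on both sides of 0, and none passed the test over all genes. Of the 10 differences 7 were positive, where 47.5% of all genes had a positive one. CDK1, CCNB2, PLK1, CDC25B and CDC25C had both siNF90 arrays above both siNTC arrays, with differences from 0.40 to 0.60. WEE1, PKMYT1 and CDC25A had both siNF90 arrays below both siNTC arrays, with differences from -0.80 to -0.16. CCNB1 and CCNA2 overlapped between the groups. Over all genes, 19.2% had both siNF90 arrays above and 22% both below, so 5 and 3 of 10 stand beside those shares. The median difference of the 10 genes was 0.25, against -0.018 over all genes.

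In limma, none of the 10 genes passed an adjusted p of 0.05, as 0 of 19140 genes did (0%), and their adjusted p-values ran from 0.514 to 0.929. At an unadjusted p under 0.05 there were 2 of the 10, WEE1 and CCNB2, against 8.79% of all genes (1683). With a trend and robust prior limma called 48 genes (0.251%), of which WEE1 was 1, with an adjusted p of 0.043, and the other 9 genes had adjusted p-values from 0.183 to 0.910.

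WEE1, the kinase that phosphorylates CDK1 on its inhibitory tyrosine, had gene values of 7.47 and 7.39 on the siNTC arrays and 6.68 and 6.59 on the siNF90 arrays. Its replicates lay within 0.082 and 0.087 of each other, and the groups were separated by a gap of 0.71. The group means were 7.43 ± 0.058 (SD, n = 2) for siNTC and 6.63 ± 0.062 (SD, n = 2) for siNF90, which is 1.74-fold lower. The difference of -0.80 (SE 0.17) had an unadjusted 95% interval of -1.25 to -0.34, and limma's adjusted p was 0.514. Its unadjusted p ranked 227 among the 19140 genes.

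Most WEE1 probe sets shared this direction. Of 21 kept probe sets, 19 were lower in siNF90 cells, and in 17 both siNF90 values were below both siNTC values, where 20.3% of all 171120 kept probe sets did. The brightest one had 9.84 and 9.80 in siNTC against 9.09 and 8.95 in siNF90 cells. The probe set with the lowest difference had 6.93 and 6.75 against 6.11 and 4.61, a difference of -1.48. The 2 positive differences, 0.055 and 0.22, came from probe sets that spread widely within siNTC, the latter at 5.05 on the first and 1.75 on the second array. With the median of the probe sets in place of the mean the WEE1 difference was -0.99.

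PKMYT1 encodes MYT1, the membrane-bound kinase that also phosphorylates CDK1. Its gene values were 3.27 and 3.30 on the siNTC arrays and 2.79 and 3.08 on the siNF90 arrays. The groups did not overlap, with a gap of 0.19, but the level was near the dim limit and 1 probe set decided the gap. The difference was -0.35 (SE 0.19, adjusted p = 0.658 in limma), and no fold is given at this level. Of its 11 kept probe sets 7 were lower and 4 higher, and they ranged from -2.39 to 1.57. The lowest difference came from a probe set at 3.77 and 4.03 in siNTC and at 1.55 and 1.47 in siNF90 cells, and the highest from one that overlapped between the groups. Both siNF90 values of that lowest probe set lay below the dim limit, so it passed the filter only through its siNTC values. Without it, an alternative added after seeing the data, the PKMYT1 difference was -0.14 (adjusted p = 0.858 in limma) in place of -0.35, and the groups overlapped, with 3.22 and 3.22 in siNTC and 2.91 and 3.24 in siNF90 cells. Without the first siNF90 array the PKMYT1 difference was -0.20. Another kept PKMYT1 probe set, at 3.61 and 2.56 in siNTC and 1.88 and 0.81 in siNF90 cells, also passed the filter only through siNTC. Its difference was -1.74, and it remained in the value of -0.14. A PKMYT1 value without both probe sets was not computed. The brightest PKMYT1 probe set was higher in siNF90 cells, with 5.06 and 5.34 against 4.10 and 5.21, and its groups overlapped.

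**Figure D2:**
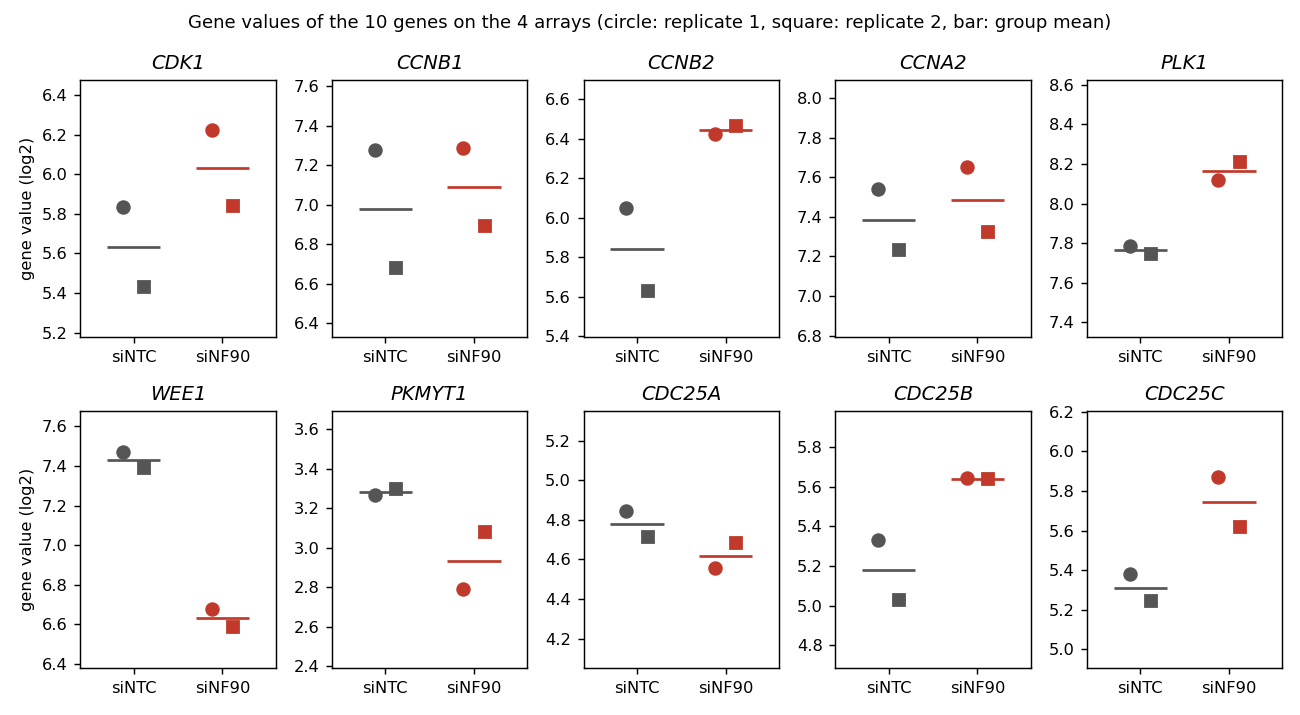
Gene values (log2, y axis) of the 10 genes on the siNTC and siNF90 arrays. Circles are replicate 1, squares replicate 2 and bars the group means, and every panel spans the same log2 range. WEE1 shows the widest gap between groups (0.71) with close replicates, while in CCNB1 and CCNA2 the second array of each group lies below the first and the groups overlap.

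Among the CDC25 phosphatases, CDC25B and CDC25C had positive differences, while that of CDC25A was negative and smaller than its SE. CDC25B, which is known to start CDK1 activation at the centrosome, had 5.33 and 5.03 on the siNTC arrays and 5.64 and 5.64 on the siNF90 arrays. Its difference of 0.46 (SE 0.20) is 1.38-fold, with an adjusted p of 0.599 in limma. Both siNF90 arrays lay above the siNTC arrays by at least 0.31, and the siNTC arrays were 0.30 apart. Of 18 kept CDC25B probe sets, 15 were higher and 8 had no overlap, while the brightest had a difference of 0.047.

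CDC25C, which acts on the CDK1-cyclin B complex and is itself activated by PLK1, had 5.38 and 5.24 in siNTC and 5.87 and 5.62 in siNF90 cells. The difference was 0.43 (SE 0.19, adjusted p = 0.608 in limma), 1.35-fold, with 12 of 15 kept probe sets higher. A single probe set weighed on this value. It had 1.59 and 0.68 on the siNTC arrays and 3.85 and 4.18 on the siNF90 arrays, a difference of 2.88, and both siNTC values lay below the dim limit. This probe set passed the dim filter only through its siNF90 values. Without it, an alternative added after seeing the data, the CDC25C difference was 0.26 (adjusted p = 0.735 in limma) in place of 0.43, and the groups still did not overlap.

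CDC25A, the phosphatase that acts at both the G1/S and the G2/M transition, had 4.85 and 4.71 in siNTC and 4.56 and 4.68 in siNF90 cells. The groups were separated by only 0.030. The difference was -0.16 (SE 0.18, unadjusted 95% interval -0.63 to 0.31, adjusted p = 0.820 in limma). Of its 18 kept probe sets 10 were lower and 8 higher, from -1.21 to 1.10. Its value depended on how the probe sets were summarised, since the difference was -0.64 with their median and -0.35 with the dim filter at the 60th percentile. It was -0.091 without the first siNTC array and -0.097 without the first siNF90 array.

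PLK1 had 7.78 and 7.74 on the siNTC arrays and 8.12 and 8.21 on the siNF90 arrays. The replicates of both groups agreed within 0.087, and the gap between groups was 0.34. The difference of 0.40 (SE 0.17) had an unadjusted 95% interval from -0.051 to 0.85. Of its 16 kept probe sets 15 were higher in siNF90 cells, and in 11 the groups did not overlap, where 18% of all kept probe sets had both siNF90 arrays above. The brightest PLK1 probe set, with 10.9 and 10.8 in siNTC and 11.3 and 10.8 in siNF90 cells, did overlap.

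CCNB2 encodes cyclin B2, a partner of CDK1. It stood at 6.05 and 5.63 on the siNTC arrays and at 6.42 and 6.46 on the siNF90 arrays. The siNF90 values were 0.040 apart, the siNTC values 0.42. The difference of 0.60 (SE 0.22) was 1.52-fold, with an unadjusted 95% interval of 0.032 to 1.17, and limma's adjusted p was 0.550. It was 0.39 without the second siNTC array. CCNB2 had the largest positive difference of the 10 genes in these gene values, but CDC25B was larger without the dim filter (0.49 against 0.46), CDC25C with the median of probe sets (0.44 against 0.36) and CDK1 by a little without the second siNF90 array (0.589 against 0.583). All 10 kept CCNB2 probe sets were higher in siNF90 cells, by 0.16 to 1.37, and 7 had no overlap. The brightest had 8.19 and 7.84 against 9.07 and 8.73.

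CDK1 had 5.83 and 5.43 in siNTC and 6.22 and 5.84 in siNF90 cells. The lower siNF90 array lay only 0.0078 above the higher siNTC array. The difference of 0.40 (SE 0.25, adjusted p = 0.687 in limma) was no larger than the distance between the siNTC replicates, 0.40. It was 0.20 without the second siNTC array, 0.21 without the first siNF90 array and 0.60 without the first siNTC array. Of 12 kept CDK1 probe sets 10 were higher and 6 had no overlap, among them the brightest, with 7.98 and 7.60 against 8.40 and 8.30.

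The other mitotic cyclins did not differ beyond their replicates. CCNB1, cyclin B1, had 7.28 and 6.68 in siNTC and 7.28 and 6.89 in siNF90 cells, which differ by 0.11 (SE 0.29, unadjusted 95% interval -0.64 to 0.87). CCNA2 had 7.54 and 7.23 against 7.65 and 7.32, which differ by 0.10 (SE 0.22, unadjusted 95% interval -0.49 to 0.69). Both groups overlapped in both genes. The sign turned without the second siNTC array, to -0.19 for CCNB1 and -0.053 for CCNA2, and without the first siNF90 array, to -0.086 and -0.065.

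**Figure D3:**
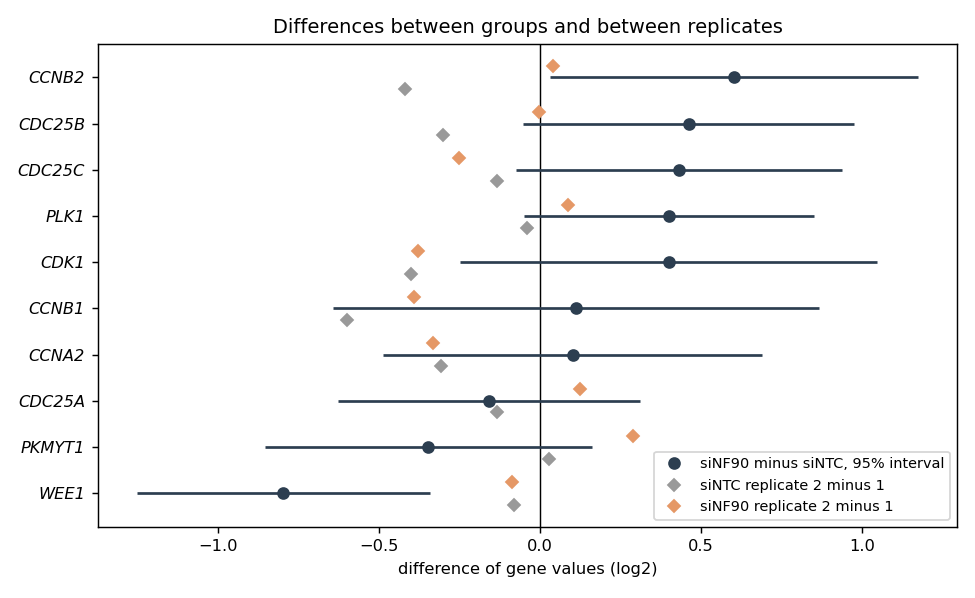
Differences of gene values (log2, x axis) for the 10 genes. Dark points with lines are siNF90 minus siNTC with the unadjusted 95% interval of limma, and diamonds are replicate 2 minus replicate 1 within siNTC (grey) and within siNF90 (orange). The intervals of WEE1 and CCNB2 leave out 0, and the siNTC replicates of CCNB1, CCNB2 and CDK1 are at least 0.40 apart.

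The second siNTC array was low for most of these genes. It lay below the first siNTC array in 9 of the 10 genes, as in 10236 of all 19140, and was the lowest of the 4 arrays in 7. The median of replicate 2 minus replicate 1 in siNTC was -0.22 over the 10 genes and -0.030 over all genes. In siNF90 it was -0.045 and -0.090. Replicate 2 was also lower in both groups for CDK1 (-0.40 in siNTC and -0.38 in siNF90), CCNB1 (-0.60 and -0.39) and CCNA2 (-0.31 and -0.33). In 4 of the 10 genes the second siNF90 array was above the first. A shift shared by same-numbered arrays was not tested for the members. The difference between groups exceeded both replicate distances in 7 of the 10 genes, all but CDK1, CCNB1 and CCNA2, where 29.2% of all genes did so. The median difference of the 10 genes was 0.073 without the second siNTC array, 0.072 without the first siNF90 array and 0.42 without the first siNTC array. With any 1 array left out, 3 genes had siNF90 below siNTC and 5 to 7 above. A group of 1 array meets this more easily, and the shares over all genes in these settings are not given here. The part of the second siNTC array in the results was not tested.

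The probe sets of a gene can also differ from each other, which the gene value does not show. Limma's diffSplice, which tests a probe set's difference against the rest of its gene, called 446 of 16175 genes at a false discovery rate of 0.05 (2.76%). CDC25C was called (false discovery rate 0.0047), and the other 9 genes were not (0.413 for PKMYT1 and 0.873 or more for the others). The CDC25C call rested on the probe set with the difference of 2.88, which stood 2.62 above the rest of the gene. Without it the rate was 0.911, with the dim filter at the 60th percentile, which removes it, 0.919, and the call was also lost without the second siNTC array (0.206) or the second siNF90 array (0.298). WEE1 was called only without the first siNTC array (0.013), and not in the other settings run.

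**Figure D4:**
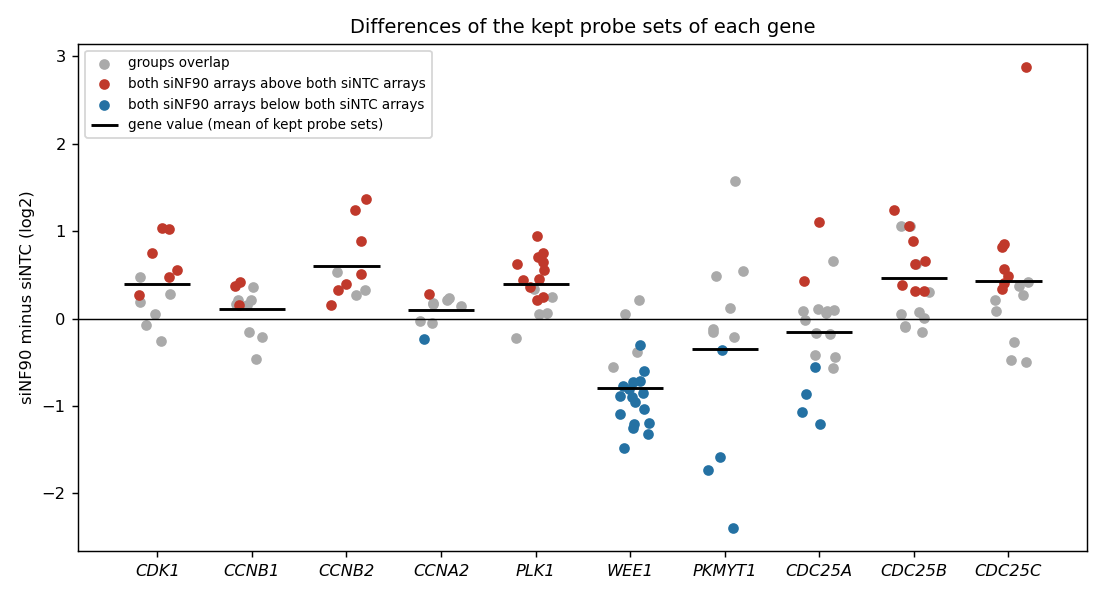
Each point is a kept probe set, with its siNF90 minus siNTC difference (log2) on the y axis, by gene. Red and blue mark probe sets whose groups did not overlap, grey those that did, and bars are the gene values. The WEE1 points lie together between -1.48 and 0.22, those of PKMYT1 spread from -2.39 to 1.57, and 1 CDC25C probe set stands apart at 2.88.

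Of the 141 kept probe sets of the 10 genes, 90 were higher and 51 lower in siNF90 cells, where 48.4% of all kept probe sets were higher. In 45 both siNF90 arrays lay above, beside 18% of all kept probe sets, and in 26 below, near the 20.3% of all. Of the 26, 17 belonged to WEE1. Tested singly in limma, 0 of the 141 passed an adjusted p of 0.05, as 0 of all 171120 did, with a smallest adjusted p of 0.629. At an unadjusted p under 0.05 there were 19 of the 141, against 7.38% of all (12629). Most of the 19 belonged to WEE1, and probe sets of the same gene on the same arrays are not independent. Among the rest were the CDC25C and PKMYT1 probe sets that passed the dim filter through a single group.

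Other genes of the pathway were taken from 6 lists with 94 measured genes. In limma 0 of the 94 passed an adjusted p of 0.05, 0 passed with the trend and robust prior, and 6 had an unadjusted p under 0.05, where 8.79% of all genes did. The counts of these lists stand beside 19.2% of all genes with both siNF90 arrays above both siNTC arrays and 22% with both below. A higher level of G2 and mitosis genes in siNF90 cells was known from earlier results of these data when the lists were chosen, so these counts are no independent support. Among 20 other genes known to peak in G2 and mitosis, 18 had positive differences, with a median of 0.23. In 10 of the 20 both siNF90 values exceeded both siNTC values and in 0 they lay below, beside 19.2% and 22% of all genes. The second siNTC array was below the first in 19 of the 20, and without it the median was 0.14 and 14 differences were positive. The part of this array was not tested. CENPF, a kinetochore protein, had 5.85 and 5.44 against 6.19 and 6.40, and PRC1, a spindle midzone protein, had 7.26 and 6.93 against 7.81 and 7.55. Both CENPF and PRC1 were higher on each siNF90 array than on either siNTC array. The 2 negative members were the proliferation marker MKI67 at -0.11 and the survivin gene BIRC5 at -0.029, named after their values were seen.

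The anaphase-promoting complex, which ends mitosis by marking cyclin B for degradation, had 16 measured genes with its activators and enzymes. Of these 12 had positive differences, with a median of 0.21, and in 8 of 16 both siNF90 arrays lay above and in 2 below (19.2% and 22% of all genes). UBE2C, its ubiquitin-conjugating enzyme, had 5.44 and 4.94 in siNTC and 5.91 and 5.72 in siNF90 cells. CDC16, a core subunit, had 5.80 and 5.66 against 6.26 and 6.17. Neither gene overlapped between the groups, with differences of 0.62 (SE 0.24) and 0.49 (SE 0.18).

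Among 10 regulators of mitotic entry that act on PLK1, CDK1 or their substrates, 7 had positive differences, with a median of 0.11, and in 4 both siNF90 arrays lay above and in 2 below, the latter near the 22% of all genes (19.2% above). Without the second siNTC array the median was -0.066. BORA, which helps to activate PLK1, had 5.35 and 4.78 against 5.404 and 5.44, a difference of 0.36 (SE 0.25). The first siNTC array lay close to both siNF90 arrays for BORA. PPP2CA, a catalytic subunit of the phosphatase PP2A that opposes CDK1, had 7.996 and 7.979 against 7.74 and 7.63, a difference of -0.30 (SE 0.17). The PPP2CA groups did not overlap.

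Of 11 measured checkpoint genes, 5 had positive and 6 negative differences, with a median of -0.11, and in 0 both siNF90 arrays lay above (19.2% of all genes) and in 2 below, a share near the 22% of all genes. Without the second siNTC array the median was 0.0018. The 2 genes with the smallest p were ATR, the kinase of the replication checkpoint, with 4.99 and 4.72 against 4.28 and 4.53, and FBXW11, a ubiquitin ligase subunit (beta-TrCP2) that targets WEE1 and CDC25A for degradation, with 6.48 and 6.53 against 6.16 and 6.18. The differences were -0.45 (SE 0.21) for ATR and -0.34 (SE 0.17) for FBXW11.

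The transcription regulators of these genes lay on both sides. Of 18 measured, 11 had positive differences, with a median of 0.045, and in 4 both siNF90 arrays lay above and in 5 below, near the 19.2% and 22% of all genes. The median was -0.0058 without the second siNTC array. LIN37, a MuvB subunit, had 4.99 and 5.30 against 5.56 and 5.396, and NFYB, a subunit of NF-Y, had 5.19 and 5.22 against 4.99 and 4.79. FOXM1, named after its values were seen, had a difference of -0.016 (SE 0.18).

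Relatives of the 10 genes included members on both sides. Of 19 other cyclins, cell cycle kinases and CKS genes, 10 had positive differences, with a median of 0.023, and in 3 both siNF90 arrays lay above and in 5 below, again near the 19.2% and 22% of all genes. The median was -0.028 without the first siNTC array and -0.036 without the first siNF90 array. PLK4, which controls centriole duplication, had 5.48 and 4.94 in siNTC and 5.82 and 6.17 in siNF90 cells, a difference of 0.78 (SE 0.27). WEE2, an oocyte relative of WEE1, had 3.78 and 4.19 against 3.31 and 3.37, from 3 probe sets at a low level. Cyclin E1, CCNE1, named after its values were seen, overlapped between the groups, with 5.66 and 5.45 against 5.75 and 5.14.

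**Figure D5:**
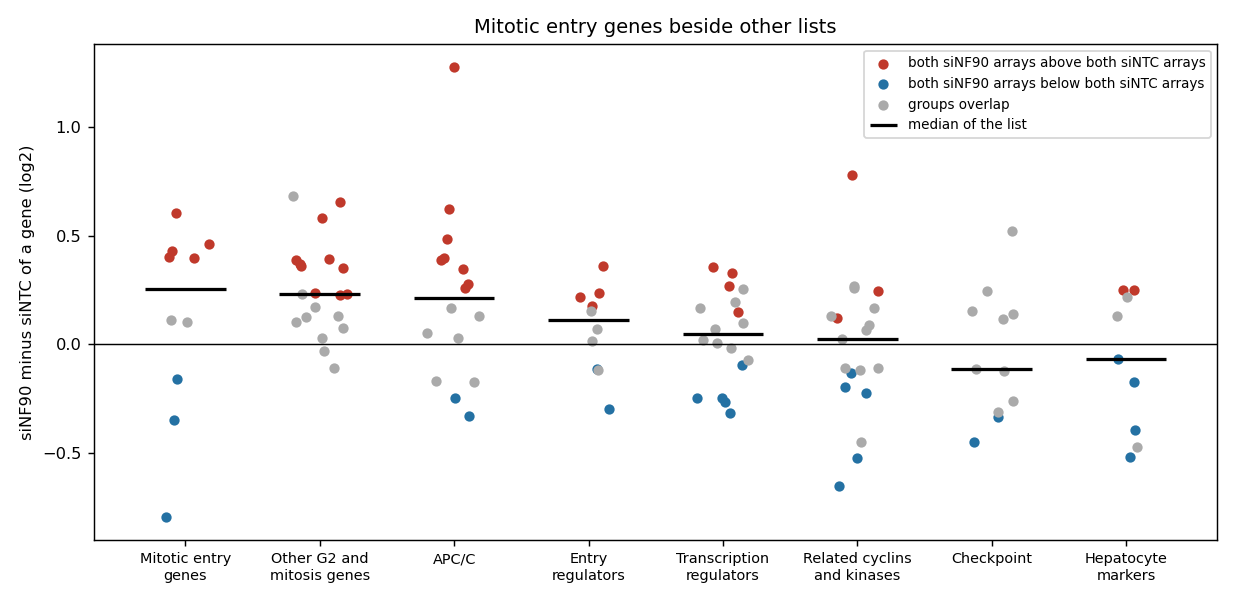
Each point is a gene, with its siNF90 minus siNTC difference (log2) on the y axis, by list. Red and blue mark genes whose groups did not overlap, grey those that did, and bars are list medians. The medians are 0.25 for the mitotic entry genes, 0.23 for other G2 and mitosis genes, 0.21 for the anaphase-promoting complex (APC/C) and -0.11 for checkpoint genes.

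The mean pattern of the 10 genes over the 4 arrays, each gene centred on its own mean, was 0.060 and -0.18 in siNTC and 0.11 and 0.015 in siNF90. The closest of 14431 other genes with at least 3 kept probe sets, by Euclidean distance over the 4 arrays, were DOLPP1, GCAT, HN1, HLA-DQB1 and BLVRA, at distances from 0.018 to 0.029. With 4 arrays such likeness is common, since 1497 genes lay within 0.2. The mean pattern averages 7 genes with positive and 3 with negative differences, so it need not resemble any single member.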

How the data were processed

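Total RNA from 4 Huh7 samples was hybridised to 1 array each. The values deposited by the authors are log2 values from an RMA-sketch analysis in Affymetrix Expression Console, per the labels. Their base is not stated and was taken from the method and their range. The version of that program and the build of the genome are not stated in the sources. RMA normalizes quantiles and, like averaging over weakly responding probe sets, pulls differences towards 0. Of 352859 probe sets, the platform's probe table gave 257971 a single symbol, and only those were used.

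Gene values were tested with limma 3.58.1 in R 4.3.3 (lmFit, eBayes, two-sided, no covariate), with Benjamini-Hochberg adjustment over all 19140 genes. Single probe sets were tested the same way, and unequal probe sets with diffSplice (Simes method). The tests were checked on simulated data in which 200 genes were changed by more than any member differed. That check does not show whether differences as small as those of the members would be found. The members and lists were chosen with earlier results of these data known. All members were named, and of each other list the 2 genes with the smallest p, since none passed; other named genes are marked as chosen later, and ALB, AFP and TF are markers. Same-numbered arrays showed no pairing over all genes, since their deviations from the group means correlated at -0.012. This does not cover the members, some of which fell from replicate 1 to 2 in both groups. Alternatives covered the dim filter, the summary of probe sets, normalization, the prior, a replicate block and leaving out each array. Precision is limited by 2 arrays per group.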

Additional observations from a re-analysis of the deposited data

How the results depend on the processing

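Over 15 alternatives, 146 of 150 differences of the 10 genes kept their sign. The exceptions were CCNB1 (from -0.19 to 0.41 when each array was left out) and CCNA2 (from -0.065 to 0.27). The prior, the replicate block and counting identical probe sets once could not change the members' differences. Nor could requiring 50% of a gene's probe sets to be kept. Each left-out probe set changed only its own gene, so the count of 146 overstates how far the signs were tried. WEE1 stayed between -0.99 and -0.70 and passed the threshold only with the trend and robust prior (-0.80, adjusted p = 0.043 in limma). The median difference ran from 0.072 to 0.42 when each array was left out. The number of genes called by limma was 0 in the main setting, 4 without the dim filter and 48 with the trend and robust prior. The replicate number was also used as a block, though no pairing was seen over all genes. With it, limma called 0 genes, and the CDC25C rate in diffSplice was 0.033. DiffSplice then called 287 genes for unequal probe sets instead of 446. Leaving out each array gave 132 to 800 such genes. The causes were not tested. With an arm of 1 array, that array is assumed to vary like the others. Counting identical probe sets once and leaving out 1 CDC25C or 1 PKMYT1 probe set were added after seeing the data. Leaving out 1 PKMYT1 probe set took the genes with both siNF90 arrays below from 3 to 2. Dim probe sets limit PKMYT1 most.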
